A study of Oryzias latipes with 15 samples.

Results

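The genes described here are 9 blood plasma protein genes, chosen by symbol from the 23028 genes in a normalized expression table of medaka testis. They are c3-1, cfbl, c9, fga, fgb, cp, hpxa, tbt-bp1 and vtg3. They were chosen with knowledge of their levels in the 3 testis libraries of fish given perchlorate with vitamin C, so their levels at the high dose are given as a description, with no test.

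Testis RNA of medaka (Oryzias latipes), a freshwater fish in which the female lays eggs, was sequenced in 15 libraries of 5 groups. The control fish received neither agent. The low dose was 0.01 mg/L KClO4, potassium perchlorate, which blocks iodide uptake by the thyroid, and the high dose was 10 mg/L KClO4. A further group, called the combined group here, received 10 mg/L KClO4 with 3 mg/L vitamin C, an antioxidant, and the last group received 3 mg/L vitamin C alone. Each group had 3 libraries, which the labels call biological replicates. The labels give no strain, age or length of exposure and do not say whether a library came from 1 fish or from pooled fish. All p-values therefore measure only the spread between these libraries.

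Most blood plasma proteins are made by liver cells and secreted. Complement proteins mark and puncture microbes in a cascade that runs through C3, fibrinogen is cut by thrombin to form the mesh of a clot, and carrier proteins hold metals, heme and small hydrophobic molecules in the circulation. Vitellogenins are yolk precursors that the liver of egg-laying fish makes under estrogen. In whole-tissue RNA a change in the number of cells of a type cannot be told apart from a change in RNA per cell.

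In the controls the depth was 7.82 to 13.02 M reads per library, at the low dose 5.48 to 6.19 M and at the high dose 3.21 to 12.2 M. The combined group gave 10.5 to 21.3 M reads and vitamin C alone 7.86 to 15.04 M. The values are normalized read counts, comparable between libraries but not between genes of different length. Testis genes were abundant throughout: ddx4, a germ cell RNA helicase gene, lay between 7728 and 19218 normalized counts and gsdf, a Sertoli cell factor gene, between 3190 and 9980. Their level still differed between groups. At the low dose 13 Sertoli cell genes summed to 8828 to 17374, against 23747 to 25471 in the controls. There 16 germ cell genes summed to 29885 to 46165, against 51615 to 65091. Oocyte markers were highest at the low dose: the summed level of 9 such genes was 25752.7 to 274554.7 normalized counts there and 327 to 410 in the controls. All 9 rose (limma), against 24.9% of all genes. The sum was also above the controls in the combined group, at 1277 to 1609, and with vitamin C alone, at 1760 to 2844. In each of these groups 5 of 9 rose, against 2.36% and 0.304% of all genes. All 9 plasma genes passed the filter on low values, which asked for an average of 10 or more across the 15 libraries. Over the 12 libraries outside the combined group, 8 of 9 would have passed, and fgb, with a mean of 8.91, would not. No library had 0 reads of any of the 9 genes, and the lowest value was 1 read.

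c3-1 encodes a copy of complement C3, the protein on which the complement pathways meet, and it held the most reads of the 9 genes in every library of the combined group, a rank that also depends on gene length. It stood at 840.0, 3647 and 996 normalized counts in replicates 1, 2 and 3 of the combined group. In the controls it stood at 18.0, 16.2 and 42.2, at the low dose at 55.3, 52.7 and 34.5, at the high dose at 66.1, 50.1 and 96.7, and with vitamin C alone at 33.6, 32.9 and 41.3. The 3 libraries of the combined group lay far above all others, and the lowest of them was 8.68 times the highest of the other 12. c3-1 has a neighbouring, related gene, c3-2, in the RefSeq annotation, and reads that match both copies could be divided between them, because how such reads were handled was not given in the sources used here.

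cfbl encodes a complement factor B-like protein, a protease component of the alternative complement pathway. It stood at 148, 547 and 174 normalized counts in the combined group and at 14.4, 28.9 and 25.5 at the high dose alone. It was low elsewhere, with 2.12, 3.74 and 15.4 in the controls, 8.19, 9.59 and 18.0 at the low dose and 9.43, 9.02 and 11.8 with vitamin C alone. The high-dose libraries overlapped the controls, because high-dose replicate 1 lay below control replicate 3.

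c9 encodes the last component of the membrane pore that complement builds. It stood at 98.2, 395 and 114 normalized counts in the combined group. At the high dose alone it stood at 23.0, 34.7 and 29.8, above all 9 libraries without 10 mg/L KClO4. Those were at 1.06, 7.48 and 4.69 in the controls, 6.14, 2.40 and 18.0 at the low dose, and 5.31, 7.73 and 14.2 with vitamin C alone. For c9 the high-dose values thus lay between those of the libraries without the high dose and those with vitamin C added. They rest on few reads, with 8 in high-dose replicate 1 and 12 in low-dose replicate 3. How many of all genes showed this order was not counted.

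fga and fgb encode the alpha and beta chains of fibrinogen. fga stood at 156, 613 and 184 normalized counts in the combined group and at 25.9, 44.9 and 20.2 at the high dose alone. In the controls it stood at 4.24, 7.48 and 10.7, at the low dose at 2.05, 11.98 and 6.004, and with vitamin C alone at 15.3, 16.1 and 10.6. All 6 libraries with the high dose lay above the other 9, with only 9 reads of fga in high-dose replicate 1. How many of all genes showed this order was not counted. fgb stood at 133, 594 and 170 with perchlorate and vitamin C, at 14.4, 16.7 and 19.1 at the high dose alone, and at 2.12, 7.48 and 3.35 in the controls. It stood at 8.19, 14.4 and 3.00 at the low dose and at 5.90, 6.44 and 5.90 with vitamin C alone. In replicate 3 of the combined group fga was at 1.18 and fgb at 1.28 times their replicate 1 level. This was not particular to the 2 chains, as c3-1 was at 1.19, cfbl at 1.18 and c9 at 1.16. In the RefSeq annotation of medaka fga and fgb lie on the same chromosome with 1 protein-coding gene between them.

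cp encodes ceruloplasmin, a copper-carrying enzyme that oxidises iron. It stood at 165, 675 and 228 normalized counts in the combined group, and at 23.0, 83.5 and 38.3 at the high dose alone. It also varied within other groups, with 17.0, 27.4 and 78.4 in the controls and 18.4, 9.59 and 101 at the low dose, but 19.5, 20.0 and 15.3 with vitamin C alone. Control replicate 3 and low-dose replicate 3 thus stood at the level of the highest high-dose library. The same pair of libraries had the highest tbt-bp1 of their groups.

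tbt-bp1 encodes a protein named for binding tributyltin, known from fish plasma. It stood at 124, 467 and 127 normalized counts in the combined group. Elsewhere it stood at 9.54, 6.23 and 17.4 in the controls, 2.05, 4.79 and 21.0 at the low dose, 31.6, 18.0 and 15.9 at the high dose and 7.67, 14.2 and 8.26 with vitamin C alone. The controls overlapped the low dose, the high dose and vitamin C alone in range, while the high dose lay above vitamin C alone.

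hpxa encodes a hemopexin, a plasma carrier of free heme. It stood at 36.8, 121 and 57.2 normalized counts in the combined group and at 20.1, 62.3 and 47.8 at the high dose alone, so these groups overlapped. It stood at 12.7, 4.98 and 5.36 in the controls, 10.2, 9.59 and 12.01 at the low dose and 12.97, 7.09 and 11.8 with vitamin C alone. All 6 high-dose libraries lay above these 9. Unlike for the carriers cp and tbt-bp1, the ranges of hpxa lay apart with and without the high dose, but not with and without vitamin C at that dose. High-dose replicate 1 held only 7 reads of hpxa, and how many of all genes showed this order was not counted.

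vtg3 encodes a vitellogenin. It was highest at the high dose alone, with 43.1, 18.6 and 130 normalized counts, and stood at 13.3, 40.2 and 47.4 in the combined group. In the controls it stood at 4.24, 3.74 and 16.1, at the low dose at 10.2, 31.2 and 18.0, and with vitamin C alone at 18.3, 20.6 and 30.7. vtg3 did not follow the other 8 genes: the combined group overlapped every other group, and its highest library there was replicate 3, not replicate 2.

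**Figure D1:**
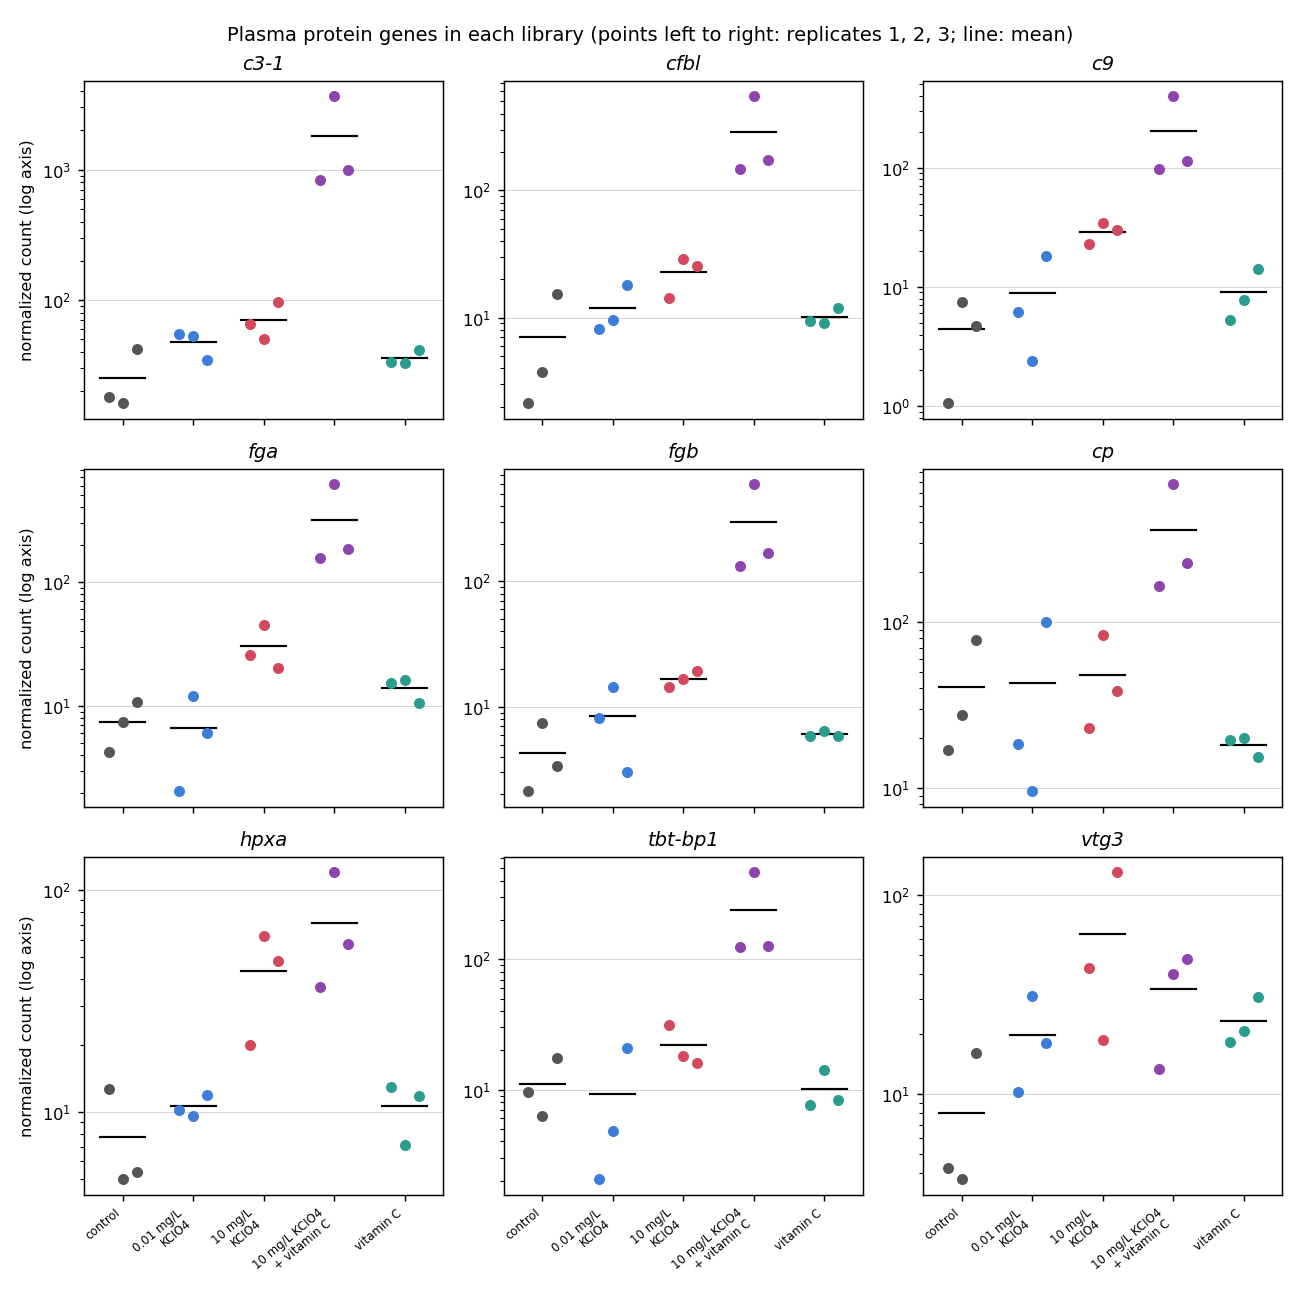
Normalized count on a log axis of each of the 9 plasma protein genes in each of the 15 libraries, with 1 point per library (replicates 1, 2 and 3 from left to right) and a line at the group mean. For every gene but hpxa and vtg3 the 3 libraries of 10 mg/L KClO4 with vitamin C lie above the other 12, and for every gene but vtg3 replicate 2 is the highest of them.

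In the order of group means, the combined group came first and the high dose second for 8 of 9 genes, and vtg3 had these places exchanged. c3-1 averaged 1827 ± 1577 normalized counts in the combined group and 71.0 ± 23.7 at the high dose (SD, n = 3 in each group). fgb averaged 299 ± 256 and 16.7 ± 2.39, and hpxa 71.5 ± 43.7 and 43.4 ± 21.4. The SD of the combined group was large because replicate 2 stood apart. Below these places the order differed between genes, and from the third place down the ranges of neighbouring groups overlapped for every one of the 9 genes.

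For 7 of the 9 genes all 3 libraries of the combined group lay above the other 12. Over all 17778 genes tested, 0.489% showed this order, 87 genes in all. The choice of the genes used these libraries, so their count is a description only. The high-dose libraries without vitamin C lay above the 3 controls for 6 of 9 genes, against a background of 28.6% of all genes tested, with cfbl, cp and tbt-bp1 as the exceptions.

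The fitted differences describe the same pattern on a log2(value + 1) scale, on which low genes appear to change less than they do. They come from 1 limma fit over all libraries, with standard errors from 3 libraries a group. From the high dose to the combined group the log2 difference was 4.39 ± 0.47 for c3-1, 3.76 ± 0.58 for fgb and 3.40 ± 0.59 for cfbl. It was 3.16 ± 0.66 for tbt-bp1, 3.14 ± 0.57 for fga, 2.78 ± 0.75 for cp and 2.48 ± 0.67 for c9. hpxa differed by 0.68 ± 0.51 and vtg3 by -0.66 ± 0.68, and without high-dose replicate 3 the vtg3 difference was 0.06. The genes with a large difference, chosen with these libraries known, included complement, clotting and carrier genes, but not the carrier hpxa. Over the other listed genes of these kinds, described below, the median difference was 0.24 for complement, 0.09 for clotting and 0.12 for carriers. Over all genes it was -0.10.

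Against the controls, the combined group gave log2 differences from 2.02 ± 0.68 for vtg3 to 5.91 ± 0.47 for c3-1. The high dose alone gave 2.69 ± 0.68 for vtg3, 2.68 ± 0.67 for c9 and 2.32 ± 0.51 for hpxa, and 1.52 ± 0.47 for c3-1. The order of the genes was therefore not that of the combined group: vtg3 and hpxa stood near the top and c3-1 below the middle. tbt-bp1 differed by 0.97 ± 0.66 and cp by 0.32 ± 0.75 at the high dose, and both turned with quantile normalization, to -0.08 and -0.28. That scaling lowered the high-dose difference of the other 7 genes too, each by more than 1.5 times. It became 1.75 for vtg3, 1.59 for c9, 1.49 for hpxa and 0.92 for c3-1. For cfbl, fgb and fga it became 0.68, 0.74 and 0.82, from 1.88, 1.86 and 1.88. Both comparisons share the control libraries, so their values are not independent.

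**Figure D2:**
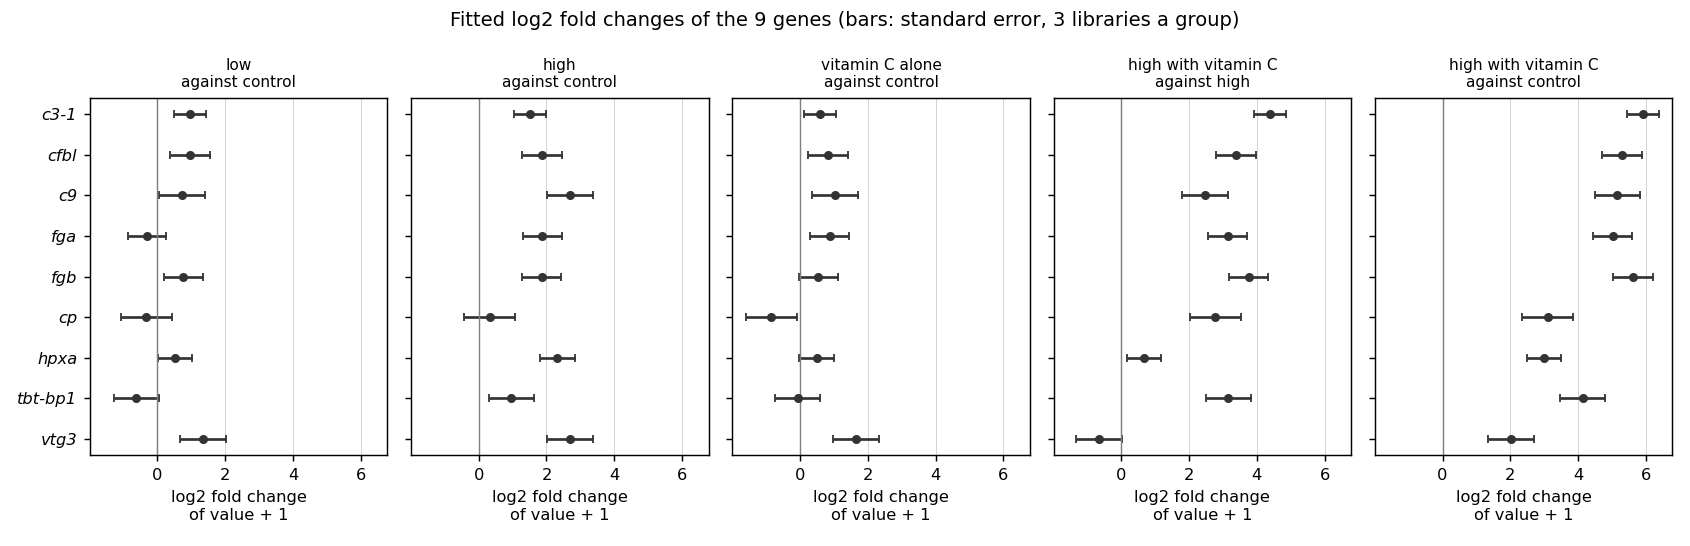
Fitted log2 fold change of value + 1 (horizontal axis, with bars for the standard error and 3 libraries a group) of the 9 genes in 5 comparisons. In the comparison of the combined group with the high dose, 7 genes lie between 2.48 and 4.39 while hpxa is at 0.68 and vtg3 at -0.66.

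The low dose and vitamin C alone were not named in the choice of the genes, and there they were tested. At the low dose 0 of 9 genes passed, or 0 of 8 without fgb, which met the filter on low values only through the combined group (limma, Benjamini-Hochberg adjusted over all genes), against 47.8% of all genes tested, 24.9% higher and 22.9% lower. None of the 9 had an unadjusted p under 0.05, and edgeR and DESeq2 on the recovered reads called 0 and 0. The spread of the fit includes the uneven combined group, which can widen the errors here and with vitamin C alone. A low-dose library held only 59 to 154 reads of the 9 genes in all. The 0 calls therefore do not show that these genes were unchanged. The closest was c3-1, with 25.5 ± 14.5 normalized counts in the controls and 47.5 ± 11.3 at the low dose, a log2 difference of 0.97 ± 0.47 (limma adjusted p = 0.0999). Of the 9 differences 6 were above 0, with vtg3 at 1.339 ± 0.68, and fga, cp and tbt-bp1 were below it. Leaving out control replicate 3 gave calls to c3-1, cfbl and vtg3, where 43.7% of all genes were called. Leaving out low-dose replicate 3 gave calls to c3-1 and, lower, to tbt-bp1, where 61.3% of all genes were called.

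With vitamin C alone 0 of 9 genes passed as well, or 0 of 8 without fgb, against a background of 0.405%, with 0.304% higher and 0.101% lower. Only 1 of the 9, vtg3, had an unadjusted p under 0.05, with 8.02 ± 6.99 normalized counts in the controls and 23.2 ± 6.59 with vitamin C (log2 difference 1.65 ± 0.68, limma adjusted p = 0.435), and edgeR and DESeq2 called 0 and 0. c3-1 differed by 0.60 ± 0.47 (limma adjusted p = 0.774) and cp by -0.84 ± 0.75 (limma adjusted p = 0.81). Weighting the libraries by their agreement with their group called 7 of the 9 genes at the low dose, where it called 74.2% of all genes. With vitamin C alone it called 4, namely cfbl, c9, fga and vtg3, and 37.4% of all genes, so that both counts lay near the background.

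As a share of all reads, the 9 genes together took 0.000762% to 0.00493% in the 12 libraries outside the combined group. They took 0.0199% (exact binomial 95% interval 0.0194 to 0.0206) in replicate 1 of the combined group, 0.0838% (0.0823 to 0.0853) in replicate 2 and 0.0246% (0.0236 to 0.0255) in replicate 3. These intervals cover counting error only. Since the choice of the genes used these libraries, the shares are a description.

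Within the summed reads of the 9 genes, c3-1 made up 49.0%, 51.4% and 47.5% in replicates 1, 2 and 3 of the combined group. In the other 12 libraries it made up 14.0% to 45.8%, the highest being low-dose replicate 1 with only 59 reads over all 9 genes. cp made up 9.64%, 9.50% and 10.9% in the 3 libraries, and fga 9.08%, 8.64% and 8.76%. The summed level of the 9 genes was 1714, 7099 and 2097 normalized counts in these libraries, so the total differed widely while the proportions of the main genes stayed close. In the controls the proportions moved more, with cp at 23.9%, 32.4% and 40.5%, but those libraries had 67 to 289 reads in all. With vitamin C alone the proportion of c3-1 was close as well, at 26.3%, 24.5% and 27.6%, on 127 to 217 reads. Not every proportion was steady in the combined group, where vtg3 made up 0.78%, 0.57% and 2.26%.

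The replicates of the combined group were uneven for all 9 genes, with replicate 2 the highest for 8 of them and replicate 3 for vtg3. Replicate 2 held 3.01 to 4.48 times the normalized count of replicate 1, lowest for vtg3 and highest for fgb, with a median of 3.94. Over the 16435 genes with at least 10 normalized counts in all 3 libraries the median ratio was 1.01, and 0.56% of them had a ratio above 3. Replicate 3 was close to replicate 1 for c3-1, cfbl, c9, fga and tbt-bp1, at 1.03 to 1.19 times its level, while cp was at 1.38, hpxa at 1.55 and vtg3 at 3.55. Without replicate 2 the log2 difference between the combined group and the high dose was 3.72 for c3-1, 3.10 for fgb and 2.81 for cfbl. It was 2.53 for tbt-bp1, 2.52 for fga, 2.18 for cp and 1.85 for c9. For hpxa it was 0.22 without replicate 2. The choice of the genes used the remaining libraries too, so these differences are a description only.

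Markers of other cell types were measured beside these values in the same libraries. In the liver cell enzyme and factor list 23 genes had at least 10 normalized counts in replicates 1 to 3 of the combined group. Their median ratio of replicate 2 to replicate 1 was 1.53. Above a ratio of 2 were 6 of the 23, against 2.57% of all genes at that level of counts. The summed level of all 32 genes of that list was 4603, 6504 and 5459 normalized counts in these libraries, 4256 to 5396 in the controls and 4248 to 4526 at the high dose. fabp10a, a liver fatty acid binding protein gene, stood at 50.1, 161 and 66.1 there, at 74.7, 40.5 and 133 at the high dose and at 119 in low-dose replicate 3. tdo2a, a tryptophan-degrading enzyme gene, stood at 10.5, 48.6 and 13.1 and was at or below 3.85 in the other 12 libraries, the 1 gene of the 32 with all 3 libraries above the rest. No gene of any marker list was at 0 in all libraries, but this holds for all 23028 genes measured. The 58 listed liver symbols matched 32 genes, so some listed markers could not be measured. The part of liver RNA in the levels of the 9 genes was not tested.

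Other marker lists had lower median ratios, some of them by little. The median ratio of replicate 2 to replicate 1 was 1.48 over exocrine pancreas genes, 1.46 over immune cell genes, 1.35 over kidney epithelium genes, 1.30 over vessel genes and 1.24 over gut epithelium genes. It was 0.77 over both red blood cell and germ cell genes, 0.97 over oocyte genes and 1.14 over Sertoli cell genes. Above a ratio of 2 were 3 of 9 pancreas, 2 of 8 kidney, 1 of 14 immune, 1 of 10 vessel and 1 of 6 gut genes. None of the red blood cell, germ cell, oocyte or Sertoli cell genes were. In this share the liver list, with 6 of 23, did not stand apart from the pancreas and kidney lists. Red blood cell genes summed to 539, 395 and 422 normalized counts in replicates 1, 2 and 3, against 551.5 to 656 in the controls, and to 678, 1027 and 663 at the high dose, where all 3 libraries lay above the controls, replicates 1 and 3 by little. Pancreas genes summed to 945 to 1251 at the high dose, 444 to 777.5 with vitamin C added and 216 to 407 in the controls. At the high dose gut genes summed to 1296 to 1973, against 239 to 655 in the controls. Kidney genes summed to 2068 to 3392 against 923 to 1356, vessel genes to 689 to 1068 against 434 to 530.0 and oocyte genes to 934 to 1347 against 327 to 410. Immune genes overlapped in sum, at 847 to 1075 against 972 to 1282, but 9 of 14 tested rose and 1 fell (limma). Of the kidney genes 2 of 8 rose and 1 fell. Rises were called for 9 of 10 pancreas, 3 of 7 gut, 5 of 11 vessel, 2 of 6 red blood cell and 5 of 9 oocyte genes, with 0 falls. Sertoli cell genes summed to 15734 to 18506 at the high dose, all below the 23747 to 25471 of the controls, and 3 of 11 tested fell and 0 rose. Germ cell genes overlapped in sum, at 38807 to 53675 against 51615 to 65091, with 4 of 14 lower and 2 higher. Over all genes tested at the high dose 18.3% were called higher and 20.5% lower. The pancreas, gut, kidney, vessel, red blood cell and oocyte sums were thus above the controls in the same high-dose libraries as c3-1, c9, fga, fgb, hpxa and vtg3, and their part in those levels was not tested.

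**Figure D3:**
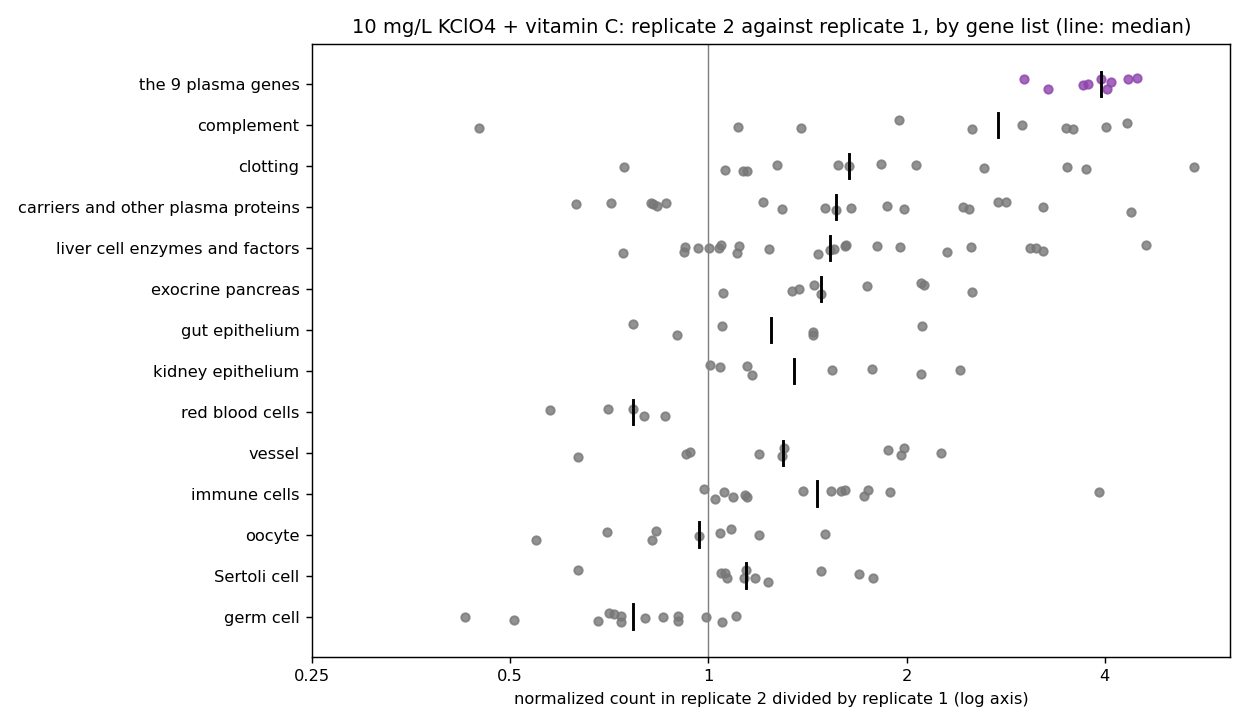
Ratio of the normalized count in replicate 2 to that in replicate 1 of 10 mg/L KClO4 with vitamin C (log axis), with 1 point per gene with at least 10 normalized counts in all 3 libraries of the group, by gene list, and a line at each list's median. The 9 plasma genes lie between 3.01 and 4.48. Complement genes have a median of 2.75, with 6 of 10 genes above 2. Clotting genes have a median of 1.64, with 5 of 13 above 2. Carriers and other plasma proteins have a median of 1.56, with 6 of 19 above 2. Of all 16435 genes at that level of counts, 2.57% are above 2. The red blood cell and germ cell lists have medians of 0.77.

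Other genes of the same systems were taken from lists of complement, clotting, carrier and estrogen-induced genes, with 52 genes in the table, of which 42 were tested. The lists were chosen with earlier results of these data known, so their counts of calls, here and below, are descriptions and no independent test. The estrogen-induced list had 1 gene in the table, esr1, which encodes an estrogen receptor and no plasma protein. With vitamin C added to the high dose, 5 of the 42 rose and 2 fell (limma, adjusted over all genes), against 10.4% of all genes called, 7.74% higher and 2.64% lower. The median log2 difference over the 42 was 0.17, and over all genes -0.10. The genes that rose were c3-2, c1r, kng1, f2 and ahsg2, and those that fell were cfd and f13a1b. c1r averaged 2.67 normalized counts over the other 12 libraries and met the filter only through the combined group, so its values are a description with no test, and 4 rises are left without it. Most plasma protein genes of the lists therefore did not pass, which also holds for most of all genes tested.

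c3-2, the neighbouring C3 copy, stood at 151, 604 and 188 normalized counts in the combined group and at 80.4, 66.8 and 74.4 at the high dose (log2 difference 1.79 ± 0.47, limma adjusted p = 0.0259). In the controls it stood at 14.8, 19.9 and 40.2. c3-2 shared the order of the replicates with c3-1 but differed less from the high dose. c1r, a protease gene at the start of the classical complement pathway, stood at 22.6, 97.7 and 30.2 against 0, 9.63 and 10.6. kng1, the gene of kininogen, a clotting and bradykinin precursor, stood at 34.3, 188 and 53.1 against 2.87, 23.1 and 21.3 (2.48 ± 0.68, limma adjusted p = 0.0311). All 3 had their highest library in replicate 2, at more than 3 times both others, while among the 9 genes hpxa was less uneven and vtg3 was highest in replicate 3.

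f2, the prothrombin gene, stood at 138, 517 and 202 normalized counts against 74.7, 91.8 and 111 at the high dose (1.41 ± 0.40, limma adjusted p = 0.0358). ahsg2, a fetuin gene, stood at 42.4, 106 and 31.0 against 14.4, 15.4 and 15.9 (1.71 ± 0.41, limma adjusted p = 0.0159). The genes that fell had even replicates. cfd, the gene of complement factor D, which cuts factor B, stood at 510, 565 and 463 with vitamin C and 991, 950 and 659 without (-0.74 ± 0.21, limma adjusted p = 0.04). f13a1b, a gene of the clot-stabilising factor XIII, stood at 40.4, 46.2 and 33.5 against 77.6, 79.6 and 91.4 (-1.04 ± 0.27, limma adjusted p = 0.0234).

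The number of calls depended on single libraries, over all genes as well as here. Without replicate 2 of the combined group 0 of the 42 genes passed, without its replicate 3 ahsg2 alone did, and without high-dose replicate 2 kng1 alone did, while 3.65%, 3.17% and 3.24% of all genes were called in these fits. Without high-dose replicate 1 or 3 the counts were 3 and 4. Over all fits that left out 1 library the difference ran from -1.15 to -0.92 for f13a1b and from -0.92 to -0.63 for cfd, close to the values above. With the replicate number as a block, cfd (limma adjusted p = 0.0571) and c1r no longer passed, and c1r was also not called with a pseudocount of 0.5.

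Against the controls, 9 of the 42 genes rose in the combined group and 0 fell. Of all genes 3.62% were called, 2.36% higher and 1.26% lower. c1r met the filter only through this group, so its values are a description with no test, and 8 rises are left without it. Of 11 complement genes 6 rose, c1r among them, with a median log2 difference of 1.71 over the 11, c1r included. Among them c3-2 may share reads with its related neighbour c3-1. Of the other lists, 2 of 12 clotting genes and 1 of 18 carrier genes rose. The complement genes that rose were c3-2 (3.44 ± 0.47, limma adjusted p = 0.0015), c1r, c7b (1.71 ± 0.46), serping1 (1.94 ± 0.39) and both c4b entries. c7b is a gene of the complement pore and serping1 the gene of the C1 inhibitor. The others were kng1 (3.39 ± 0.68), f2 (1.89 ± 0.40) and serpina7 (2.67 ± 0.58). c7b stood at 153, 546 and 430 normalized counts and at 80.6, 66.0 and 190 in the controls, and was named after its values were seen. Its call was lost with pseudocounts of 0.5 and 5, with no filter on low values, with a mean of at least 50 and with quantile normalization, at limma adjusted p-values of 0.0504 to 0.0644. Quantile normalization also ended the calls of serping1 (limma adjusted p = 0.0547) and 1 c4b entry (limma adjusted p = 0.0912). Leaving out control replicate 1 or 2, or replicate 2 or 3 of the combined group, left c3-2 as the 1 call in each case, while 0.242% to 0.398% of all genes were called.

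**Figure D4:**
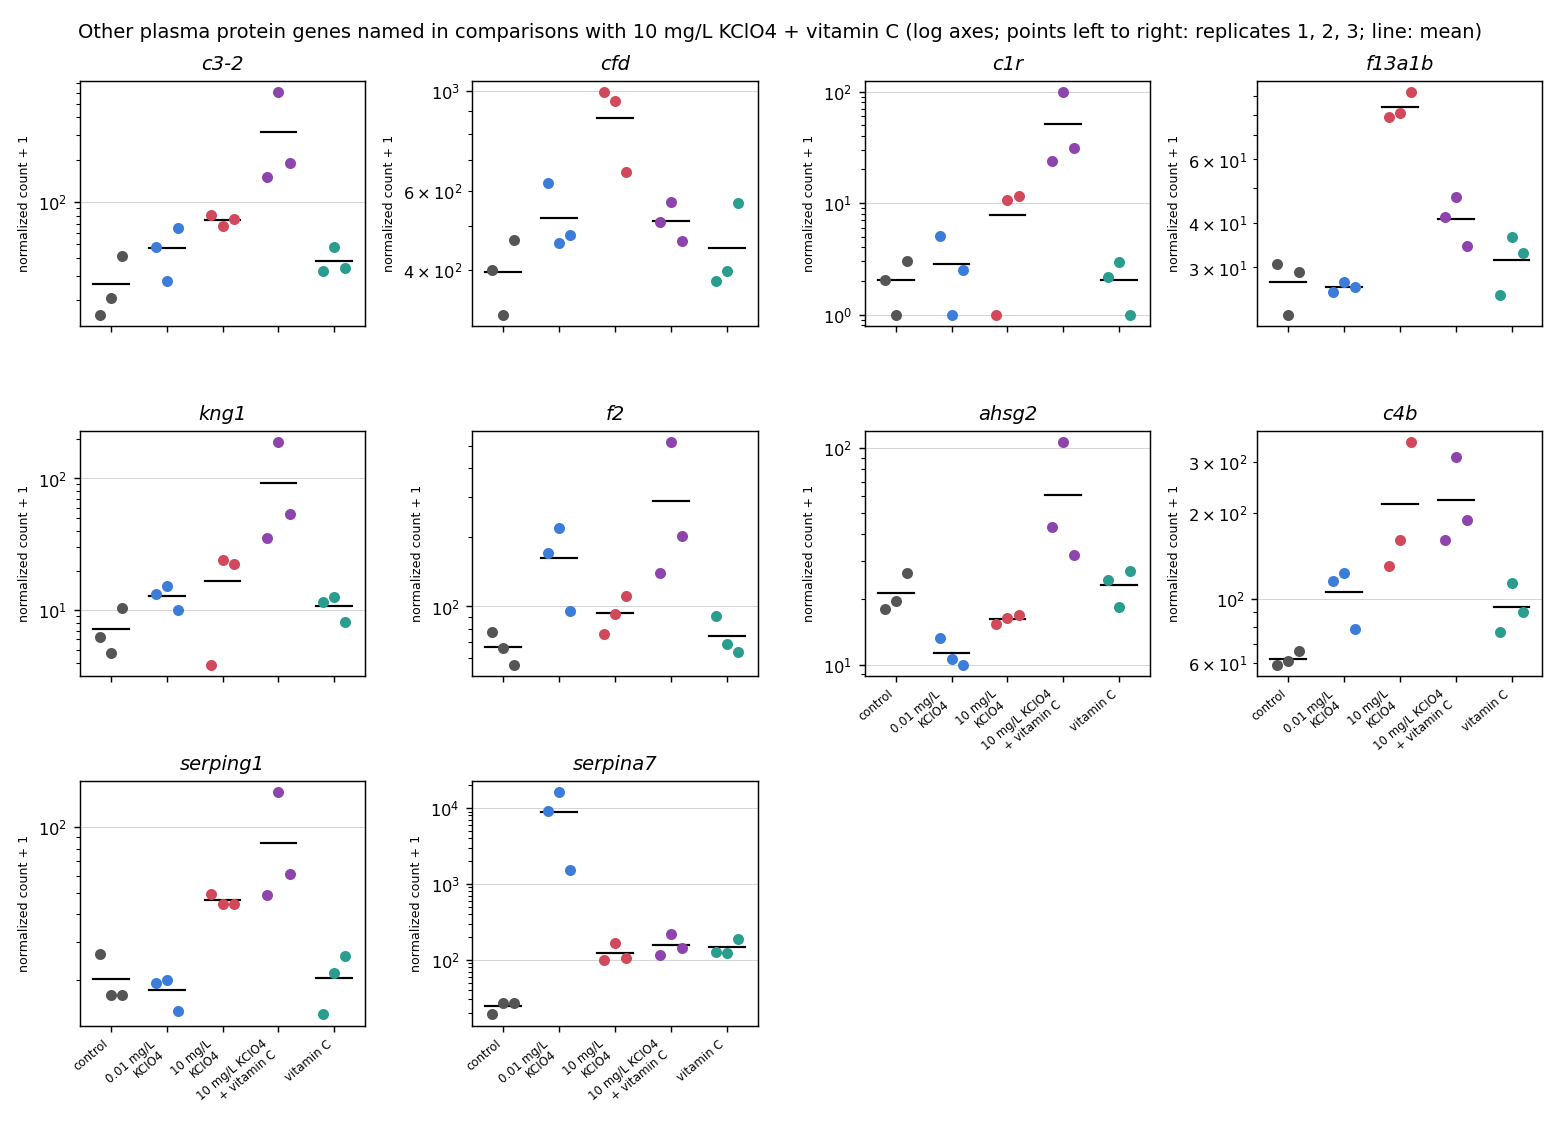
Normalized count + 1 on log axes of 10 other plasma protein genes named in the comparisons of the combined group, with 1 point per library (replicates 1, 2 and 3 from left to right) and a line at the group mean. c3-2, c1r, kng1, f2 and ahsg2 have their highest library in replicate 2 of the combined group, cfd and f13a1b have their highest group at the high dose alone, and serpina7 has its highest group at the low dose.

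At the high dose alone 12 of the 42 genes rose and 0 fell, against 38.7% of all genes called, 18.3% higher and 20.5% lower. Of these, 6 were complement genes: c3-2 (1.64 ± 0.47), both c4b entries, cfd (1.13 ± 0.21, limma adjusted p = 9.55e-04), serping1 (1.22 ± 0.39) and C8A (2.39 ± 0.83, limma adjusted p = 0.0323), a gene of the complement pore. C8A stood at 25.9, 71.9 and 24.4 normalized counts at the high dose, 13.7, 48.0 and 29.4 with vitamin C added and 4.24, 4.98 and 10.1 in the controls, and was named after its values were seen. Clotting genes gave f13a1b (1.63 ± 0.27, limma adjusted p = 3.70e-04) and proca (1.47 ± 0.39), the gene of the anticoagulant protein C. Of 24 liver cell enzyme and factor genes, 9 rose and 1 fell. Among the rises were agxtb, a glyoxylate enzyme gene, at 3.25 ± 0.54 and gys2, the liver glycogen synthase gene, at 3.31 ± 0.59. UGP2 fell (-1.42 ± 0.20, limma adjusted p = 1.69e-04), the smallest adjusted p of that list. From the high dose to the combined group 1 of the 24 rose, UGP2, and 1 fell, nr1h4, where 10.4% of all genes were called. From the controls to the combined group 2 of the 24 rose, where 3.62% of all genes were called. Without control replicate 1, control replicate 2 or high-dose replicate 2 the plasma calls numbered 7, 6 and 7, while 27.2%, 26.4% and 26.4% of all genes were called. Quantile normalization ended 7 of the 12 calls, those of c3-2, serping1, C8A, 1 c4b entry, proca, igfbp2a and 1 SERPINA10 entry. C8A was also not called with a pseudocount of 0.5 (limma adjusted p = 0.0565).

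At the low dose 6 of the 42 genes rose and 4 fell, esr1 among them, against 47.8% of all genes called. The rises were led by serpina7, a gene whose human counterpart encodes thyroxine-binding globulin, at 9150, 16218 and 1515 normalized counts against 18.0, 26.2 and 26.1 in the controls (log2 difference 7.98 ± 0.58, limma adjusted p = 9.15e-08), and by both SERPINA10 entries. Low-dose replicate 2 was the highest and replicate 3 the lowest for these 3 genes, while cp and tbt-bp1 were highest in replicate 3. f2 rose by 1.22 ± 0.40 on the log2 scale (limma adjusted p = 0.0201). Oocyte markers rose in the same libraries, as given above, and their part in these rises was not tested. Without control replicate 2, low-dose replicate 1 or low-dose replicate 2 the count was 5, 6 and 5, and without low-dose replicate 3 it was 18, while 35.9%, 38.4%, 34.1% and 61.3% of all genes were called. Quantile normalization and the fit of only the groups compared ended the call of f2. With vitamin C alone 0 of the 42 genes passed, with 6 at an unadjusted p under 0.05, and edgeR called 0 and DESeq2 called 2.

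The genes whose pattern over the 15 libraries was most like the mean log2 level of the 9 genes were ranked among the 9460 named genes that averaged 50 or more. The rank used the lowest correlation over the 15 sets that each left out 1 library. The libraries share their groups and depth, so these correlations are descriptions. The first was apoa2, an apolipoprotein gene of high-density lipoprotein, with Pearson's r of 0.96 over 15 libraries, 0.64 after the group means were removed and 0.76 over the 12 libraries without the combined group. It stood at 381, 1678 and 479 normalized counts in that group and at 6.36 to 63.8 elsewhere. The second was c3-2, with 0.96, 0.84 and 0.86.

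The other 8 genes were zmynd11, FAM53B, nr0b1, lpl, dtnbp1b, apoa1b, ar-alpha and galnt14, with r from 0.80 to 0.88 over 15 libraries. apoa1b, a gene of the main protein of high-density lipoprotein, stood at 806, 3485 and 1189 normalized counts in the combined group, but its correlation was 0.22 over the other 12 libraries. lpl, the lipoprotein lipase gene, and ar-alpha, an androgen receptor gene, are in contrast well expressed in all groups, at 769 to 3437 and 176 to 507 normalized counts. Leaving out a library kept 7 to 10 of the 10 genes. Among the 9 genes themselves, cfbl had the highest correlation with the mean of the other 8, at 0.98 over 15 libraries and 0.89 over the 12. Over 15 libraries vtg3 had the lowest, at 0.46. Over the 12, however, vtg3 was at 0.71, the same as c3-1 and hpxa, and cp was the lowest, at 0.36.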

How the data were processed

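Per the labels' protocols, a ZR-Duet DNA/RNA MiniPrep kit was used for total RNA and a NEBNext Ultra II RNA kit for the libraries. Per the submitters' processing notes, the authors' tools were fastp 0.23.2, STAR 2.7.7a and DESeq2 1.34.0. How reads were counted per gene, on which build and strand, and what was done with reads of several matches was not given in the sources used here, so values of related copies such as c3-1 and c3-2 are uncertain and no coordinates are given. The table the authors deposited has 1 signal value, a normalized read count, for each of 23028 genes in each library, and 13541 genes carry a symbol. Dividing each library by its smallest value above 0 gave whole reads for 100% of 345420 values (tolerance 0.001), from which depths and shares were computed.

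The main test was limma 3.58.1 (R 4.3.3) with trend, fitted once to log2(value + 1) of all 15 libraries for the 17778 genes averaging 10 or more. A call needed a Benjamini-Hochberg adjusted p below 0.05 within its comparison. The fit gives a gene the same spread in every group, so errors can be too small for an uneven group and too large for the other groups. Levels are means ± SD and fold changes carry the standard error of the fit. The test was checked on simulated data with 1 spread setting for all genes and libraries and no uneven replicates. That check therefore does not cover an uneven group. edgeR 4.0.16 and DESeq2 1.42.0 were run on the recovered reads as alternatives, beside other pseudocounts, filters, quantile normalization, a fit of only the groups compared, library weights, a replicate block and leaving out each library. Library weights by REML did not converge, so weights estimated gene by gene were used, a change made after seeing them. One alternative, without the 3 combined-group libraries, was chosen after seeing the data.

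The 9 genes and all gene lists were chosen with earlier results of these data known. Lists were matched by symbol: 52 entries in the table matched the 140 listed plasma symbols, and 5 of the 9 genes matched a symbol in RefSeq (assembly ASM223467v1), which was used only for neighbouring genes. The genes to be named were, in each comparison, up to 4 called genes of each plasma and liver list with the smallest adjusted p, and the text names a part of them. The 9 genes got a test only at the low dose and with vitamin C alone. Same-numbered libraries of the high dose and the combined group (high dose plus vitamin C) deviated together, with correlations of 0.361, 0.198 and 0.124 read from the data, and calls that a replicate block changes there are named. No other comparison had all 3 correlations above 0.1.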

Additional observations from a re-analysis of the deposited data

How the results depend on the processing

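At the low dose the 0 of 9 calls became 7 with library weights and 0 to 3 with 1 library left out, and with vitamin C alone they became 4 with library weights and 0 in every fit that left out 1 library. The weights ran from 0.112 for low-dose replicate 3 to 6.67 for vitamin C replicate 2, so these fits lean on few libraries. They called 74.2% of all genes at the low dose, 61.5% at the high dose, 37.4% with vitamin C alone, 37.8% for the combined group against the high dose and 55.5% for it against control. The fits that left out control replicate 3 or low-dose replicate 3 called 43.7% and 61.3% of all genes at the low dose. At the low dose the 10 calls among the other listed genes, esr1 included, became 4 with only the groups compared. They became 25 with library weights and 5 to 18 with 1 library left out. Over all genes 47.8% were called in the main fit, 18.3% with only the groups compared and 34.1% to 61.3% with 1 library left out. At the high dose the 12 calls became 7 at a mean of at least 50, 24 with library weights and 6 to 12 with 1 library left out. Over all genes 38.7% became 36.4% at that mean and 26.4% to 37.7% with 1 library left out. With vitamin C alone the 0 calls became 2 with quantile normalization, 4 with only the groups compared and 2 with DESeq2. They became 8 with library weights and 0 to 1 with 1 library left out. The share of all genes was 0.405% in the main fit, 0.501% with quantile normalization, 3.77% with only the groups compared and 1.45% with DESeq2. With 1 library left out it was 0.0449% to 0.471%. For the combined group against the high dose, the 7 calls, c1r included, became 3 at a mean of at least 50. They became 14 with library weights and 0 to 5 with 1 library left out. Of all genes 10.4% were called in the main fit, 14.1% at that mean and 3.17% to 9.05% with 1 library left out. Against the controls, the 9 calls, c1r included, became 4 at a mean of at least 50 and 24 with only the groups compared. They became 16 with DESeq2, 36 with library weights and 1 to 12 with 1 library left out. Of all genes 3.62% were called in the main fit, 2.02% at that mean and 20.8% with only the groups compared. DESeq2 called 10.9% of all genes, and the fits with 1 library left out called 0.242% to 6.39%. A mean of at least 50 tests fewer genes; the cause of the other moves was not tested.

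With the replicate block, the other listed genes called were 9 at the low dose, 11 at the high dose and 0 with vitamin C alone. They were 5 for the combined group against the high dose and 10 for it against control. Over all genes the block called 47.2%, 37.9%, 0.501%, 8.93% and 3.82% in these comparisons, in this order. It gave none of the 9 genes a call. At the low dose it ended the call of esr1, and at the high dose that of a c4b entry. Quantile normalization moved the median of all genes at the low dose from -0.01 to -0.18, so its low-dose differences are relative to that shift. Without the 3 libraries of the combined group the plasma calls were 8 at the low dose and 9 at the high dose. In these fits 43.0% and 33.7% of all genes were called. Depth limits the 9 genes outside the combined group, where a library held 59 to 557 of their reads in all.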

Other observations

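Of the 87 genes with all 3 libraries of the combined group above the other 12, 42 had a symbol. In 42 of the 87, replicate 2 was more than 2 times both other replicates, and 17 of these had a symbol, 7 of them from the 9 plasma genes. Beside apoa2, apoa1b, c3-2, c1r, kng1 and ahsg2 they included ces3, a carboxylesterase gene, at 73.5, 287 and 109 normalized counts, and lyz, a lysozyme gene, at 36.4, 143 and 47.4. These genes were chosen after their values were seen, and no test was made.

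Control replicate 3 and low-dose replicate 3 had the highest level of their groups for cp and tbt-bp1. Of the 66 plasma and liver list genes with a mean of at least 10, control replicate 3 was the highest of its group for 36 and the lowest for 12. Low-dose replicate 3 was the highest for 38 and the lowest for 17, and both were the highest for 23. The same counts were not made over all genes, so they cannot be read as a trait of plasma or liver genes. f2 was the lowest in both, at 54.9 and 94.6 normalized counts. serpina1l, a gene of an alpha-1 antitrypsin-like protease inhibitor, stood at 50.3 normalized counts in control replicate 3 and at 7.42 and 8.72 in the other controls, and at 87.1 in low-dose replicate 3 and 6.14 and 9.59 in the others. fabp10a stood at 44.2 against 8.48 and 11.2, and at 119 against 22.5 and 28.8. The genes were picked after their values were seen.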
